A study of Danio rerio with 12 samples.

Results

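The genotype by stage interaction asks, gene by gene, whether the change between 1 and 6 h postfertilization (hpf) differed between MZznf598 and wild-type zebrafish embryos. It is the difference MZznf598 minus wild type at 6 hpf, minus the same difference at 1 hpf, on the log2 scale. All 12 libraries of the series entered it, and the genes were those with more than 1 CPM (counts divided by library size and scaled) in at least 3 of the 12 libraries, which left 15829 of 25432 genes. A positive value means that the transcript rose more, or was cleared less, in MZznf598 than in wild type. The same value is obtained where MZznf598 embryos started with less of the transcript at 1 hpf and then reached the wild-type level, so both genotype differences are given beside each gene.

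MZznf598 embryos have neither maternal nor zygotic Znf598 function, since they come from crosses of homozygous mutant fish that carry a frameshifting deletion in the RING domain coding part of znf598. The reference was the wild-type AB strain. Whole embryos were pooled for each sample at 1 hpf, when the RNA is maternal, and at 6 hpf, in the gastrula. The 4 groups, MZznf598 at 1 hpf, wild type at 1 hpf, MZznf598 at 6 hpf and wild type at 6 hpf, held 3 libraries each, and the labels number them 1 to 3 without saying what a shared number stands for. A single mutant allele was studied, and the mutants' mothers were themselves mutant, so a different maternal supply and the lack of Znf598 in the embryo cannot be told apart. Other differences between the mutant strain and AB cannot be told apart from the mutation either. In pools of whole embryos, fewer cells of a type and less RNA per cell cannot be told apart either. The CPM levels given are relative to library sizes scaled by TMM normalisation, so a change in the total amount of mRNA per embryo is not seen. The TMM factors were 1.15 to 1.25 at 1 hpf and 0.82 to 0.85 at 6 hpf. Stage changes and the classes built on them therefore depend on this scaling.

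When a ribosome halts on an mRNA, the one behind runs into it. The enzyme encoded by znf598 attaches ubiquitin to ribosomal proteins at such sites, after which the ribosomes can be taken apart and the message broken down. An egg is loaded with mRNAs made by the mother. During the maternal-to-zygotic transition these maternal mRNAs are cleared by maternal factors and by newly made ones such as microRNAs, while the embryo's own genome begins to be transcribed. Some genes contribute to both pools, so that their mRNA level at 6 hpf reflects maternal transcripts that were kept and zygotic transcripts that were added. The comparison of both changes between genotypes bears on whether clearance of maternal mRNA or the rise of zygotic mRNA was altered.

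The libraries held 7144704 to 12162660 counts, so that 3 counts, the limit of detection used here, correspond to less than 1 CPM in every library. The wild-type libraries with replicate number 3 stood apart from the other wild-type libraries at both stages. Between them and wild-type replicates 1 and 2 of the same stage, the chi-square statistic per gene ranged over 15.1 to 21.3, while it ranged over 2.74 to 5.47 for all other replicate pairs, so no pair of libraries agreed within sampling noise. The wild-type library of replicate 3 at 1 hpf also held more traces of gastrula transcripts. Of 68 genes with over 200 CPM in every 6 hpf library and under 0.5% of their 6 hpf mean in every 1 hpf library, 2 had no count in it, against 7 to 18 in the MZznf598 and 16 and 22 in the other wild-type libraries. Values without wild-type replicate 3 are therefore given for each named gene whose call changes without it, and for the gene lists.

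The targeted gene itself, znf598 (ENSDARG00000014945), was measured first. Its transcript stood at 3.6, 3.71 and 3.45 CPM in MZznf598 libraries 1, 2 and 3 at 1 hpf, against 129.9, 142 and 128 CPM in wild type. At 6 hpf it stood at 9.33, 10.5 and 8.14 CPM in MZznf598, against 112, 103 and 62.7 CPM in wild type. The mutant was far below wild type at both stages, by -5.21 ± 0.21 at 1 hpf and -3.31 ± 0.20 at 6 hpf (log2 difference ± SE), with no overlap. The remaining mutant transcript rose over the transition by 1.37 on the log2 scale, while the wild-type transcript fell by 0.56. The resulting interaction of 1.94 ± 0.25 had an adjusted p of 0.0130 in edgeR's quasi-likelihood test on pairs and so missed the threshold of 0.01, and it passed without the pairing (adjusted p 0.00464) and without wild-type pair 3 (8.17e-06).

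The typical course of transcripts from 1 to 6 hpf was close in both genotypes. Genes were placed into 3 classes by the mean of the stage changes of both genotypes. There were 4513 cleared genes (28.5%, mean log2 change below -1), 4594 genes of zygotic rise (29.0%, above 1) and 6722 maternal-zygotic genes (42.5%, in between). The median interaction was -0.01 in the cleared class, 0.01 in the maternal-zygotic class and -0.01 in the zygotic class. The median log2 change of the cleared genes was -1.78, -1.82 and -1.77 in MZznf598 pairs 1, 2 and 3, against -1.62, -1.73 and -2.04 in wild-type pairs 1, 2 and 3. For genes of zygotic rise it was 2.46, 2.55 and 2.53 in MZznf598, against 2.34, 2.49 and 3.0 in wild type. The MZznf598 pairs lay within the range of the wild-type pairs in both classes, and wild-type pair 3 had both the strongest clearance and the strongest rise, as the plot of class medians shows.

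**Figure D1:**
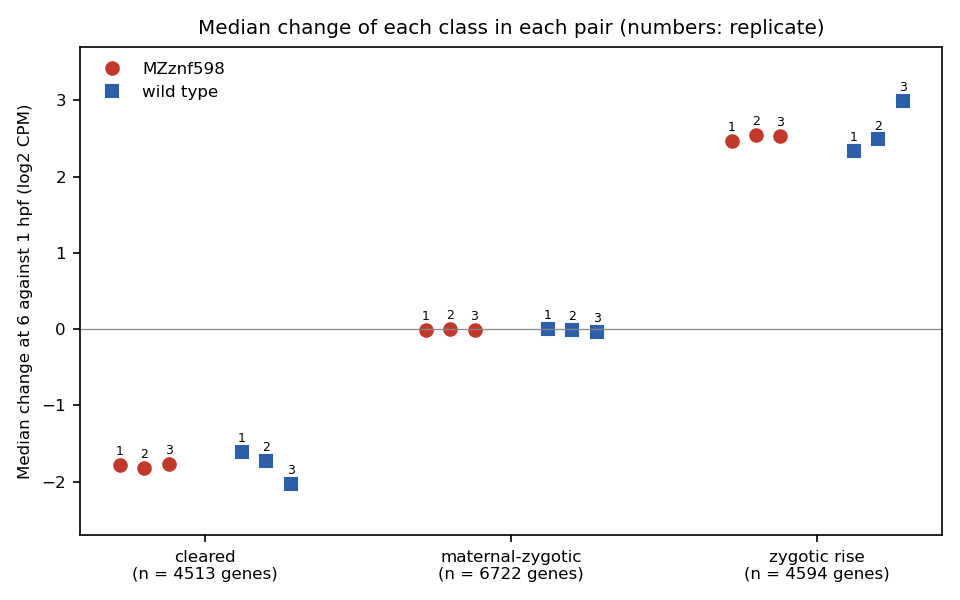
Median log2 change at 6 hpf against 1 hpf (vertical axis, log2 CPM) of cleared, maternal-zygotic and zygotic genes in each pair of same-numbered libraries, with MZznf598 as red circles left of wild type as blue squares. The MZznf598 medians of the zygotic class lay between 2.46 and 2.55, and wild-type pair 3 stood above them at 3.0.

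Against this shared course, 33 genes passed the interaction test (0.208% of the 15829 genes, edgeR quasi-likelihood test on pairs, Benjamini-Hochberg adjusted p under 0.01). In 23 of them the interaction was positive (0.145%) and in 10 it was negative (0.0632%). Without the pairing of same-numbered libraries, 45 genes were positive (0.284%) and 26 negative (0.164%), 0.449% in all, with 21 and 10 of the paired calls among them. At an unadjusted p under 0.05 there were 1869 genes (11.8%), 931 positive and 938 negative. Nothing in the labels says that same-group libraries came from separate clutches, so the p-values measure the spread between these samples. Of the called genes, 14 positive and 2 negative ones belonged to the zygotic class, 6 positive and 5 negative ones to the maternal-zygotic class, and 3 positive and 3 negative ones to the cleared class. The 14 positive genes were 0.305% of the zygotic class, against 0.145% of all genes tested, and the 3 in the cleared class were 0.0665%. The classes use the same stage changes as the interaction, so these shares are not independent of it. With classes set by the wild-type change alone, 9 of 4600 zygotic and 5 of 4513 cleared genes were positive. Every one of the 33 genes kept its sign in all alternatives tried, but the number of calls did not hold. Without wild-type pair 1, 2 or 3 it was 34, 7 and 707, of which 23, 5 and 32 were among the 33 genes. Without any one of the MZznf598 pairs it was 2 to 5, of which 1 to 3 were among the 33.

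**Figure D2:**
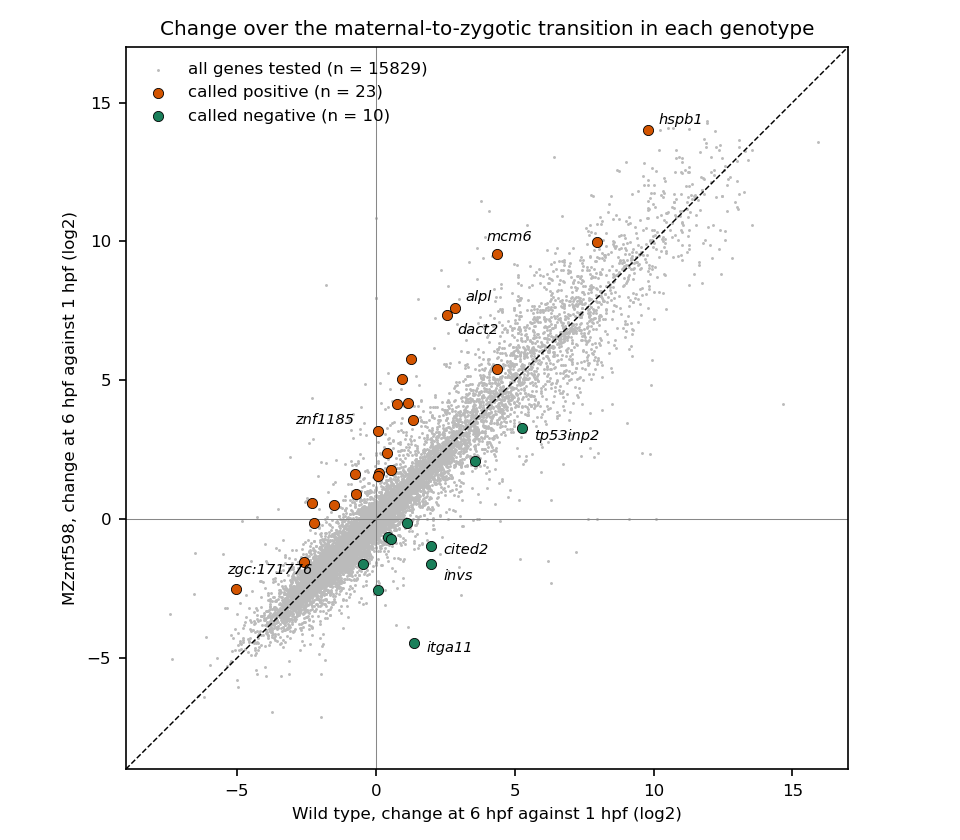
Log2 change at 6 hpf against 1 hpf in wild type (horizontal) and MZznf598 (vertical) for all 15829 genes tested, with equal change on the dashed line, 23 genes of positive interaction in orange and 10 of negative interaction in green. Most genes followed the line, and the called genes lay off it at levels of change from strong clearance (zgc:171776) to strong rise (hspb1).

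The zygotic class held the largest number of called genes, and in most of them the genotypes differed more before the transition than after it. All 14 positive genes were lower in MZznf598 at 1 hpf, 12 of them past the genotype test at that stage, and 12 had their larger genotype difference at 1 hpf. At 6 hpf 7 of the 14 were higher in MZznf598 and 7 were lower, and 3 passed the genotype test at 6 hpf. Over all genes, the genotype test called 1.60% up-regulated and 2.23% down-regulated in MZznf598 at 1 hpf, and 1.76% up-regulated and 1.75% down-regulated at 6 hpf. These tests share their libraries with the interaction, so they sort the called genes and do not add evidence for them. A low mutant level at 1 hpf also moves a gene toward the zygotic class, so nothing is read from the stage of the larger difference.

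The lowest p-value belonged to alpl (ENSDARG00000015546), the tissue-nonspecific alkaline phosphatase. It had 0.503, 0.629 and 0.402 CPM in the MZznf598 libraries at 1 hpf, against 8.68, 11.4 and 10.5 CPM in wild type. At 6 hpf it had 103, 95.8 and 112 CPM in MZznf598, against 73.1, 75.8 and 72.5 CPM in wild type. The maternal supply was thus nearly missing in the mutant, and by 6 hpf the mutant level lay above all wild-type libraries. The log2 change was 7.61 in MZznf598 and 2.86 in wild type, an interaction of 4.75 ± 0.23 (adjusted p 0.000170), and alpl was the only called gene that passed in all 6 fits that left out a pair.

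Several genes shared the low start and a 6 hpf level that did not differ past the test. For hspb1 (ENSDARG00000041065), a small heat shock protein chaperone, MZznf598 libraries held 0.144, 0.14 and 0.0803 CPM at 1 hpf, against 1.64, 2.84 and 3.51 CPM in wild type. Those are 5 counts over the mutant group and 110 over the wild-type group, a ratio of wild type to MZznf598 of 21.2 (95% exact interval 8.81 to 66.5, counting error only). At 6 hpf it reached 2126, 2284 and 2227 CPM in MZznf598 and 2079.7, 2519 and 2425 CPM in wild type, so the groups overlapped after the transition. The interaction was 4.20 ± 0.35 (adjusted p 0.00201), and nearly all of it lay in the trace amounts at 1 hpf.

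The gene b2ml (ENSDARG00000015887), which encodes a beta-2-microglobulin-like protein (beta-2-microglobulin is the light chain of MHC class I molecules), had 0.144, 0.21 and 0.241 CPM in MZznf598 at 1 hpf, against 5.19, 6.02 and 5.07 CPM in wild type. The wild-type level was 27.7 times the MZznf598 level (13.8 to 64.9). Its 6 hpf levels were 6.16, 6.57 and 7.85 CPM in MZznf598, against 8.7, 10.1 and 13 CPM in wild type, which left the mutant lower in every library, though the 6 hpf difference of -0.62 did not pass (adjusted p 0.0967). Its interaction was 4.09 ± 0.40 (adjusted p 0.00394).

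The nucleotide sugar transporter gene slc35b4 (ENSDARG00000071087) had 3.09, 2.38 and 1.69 CPM in MZznf598 at 1 hpf, against 25, 45.6 and 44.7 CPM in wild type. At 6 hpf it had 37.8, 51 and 38 CPM in MZznf598, against 55.9, 69.4 and 65.9 CPM in wild type. It rose in both genotypes, by 4.14 in MZznf598 and 0.77 in wild type on the log2 scale (interaction 3.37 ± 0.27, adjusted p 0.00197). The C2H2-type zinc finger gene znf1185 (ENSDARG00000097086) differed in that its wild-type level did not change past the test. It had 1.15, 1.61 and 1.04 CPM in MZznf598 at 1 hpf, against 16.7, 19.5 and 17.2 CPM in wild type, and 12.3, 11 and 11.7 CPM in MZznf598 at 6 hpf, against 18.2, 18.7 and 19.5 CPM in wild type. Its log2 change was 3.18 in MZznf598 and 0.08 in wild type (adjusted p 0.642 for the wild-type change), so it was placed in the zygotic class by its mutant arm, and it was lower in every MZznf598 library than in any wild-type library at both stages.

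The gene si:ch211-86h15.1 (ENSDARG00000074098) differed from these in having its larger genotype difference after the transition. It had 46.5, 47.7 and 45.5 CPM in MZznf598 at 1 hpf, against 74.9, 68.5 and 63.7 CPM in wild type. Its 6 hpf levels were 257, 224 and 247 CPM in MZznf598, against 92.3, 91.2 and 92.8 CPM in wild type. The mutant was below wild type before the transition and above it afterwards, without overlap at either stage, and both differences passed (-0.57 and 1.40). With an interaction of 1.96 ± 0.12 (adjusted p 0.000551) it passed in 5 of the 6 fits without a pair.

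The other 9 positive genes of the class were named after their values were seen. Among them, mcm6 (ENSDARG00000057683), a subunit of the replicative DNA helicase, had 0.0719, 0.14 and 0.321 CPM in MZznf598 at 1 hpf, against 16.6, 6.83 and 8.66 CPM in wild type, and 129.8, 134 and 153 CPM in MZznf598 at 6 hpf, against 248, 258 and 142 CPM in wild type. Its interaction of 5.18 ± 0.57 was the highest of the 33, yet it was the single positive gene lost without wild-type pair 3 (adjusted p 0.0809). The highest count of mcm6 in a MZznf598 library at 1 hpf was 4, so the size of its fitted change is uncertain. The gene dact2 (ENSDARG00000056986), an inhibitor of Nodal signalling in zebrafish, had 0.719, 0.839 and 0.321 CPM in MZznf598 at 1 hpf, against 8.28, 11.6 and 34.6 CPM in wild type, and 103, 112 and 99.6 CPM in MZznf598 at 6 hpf, against 76.1, 81.5 and 118 CPM in wild type. The wild-type library of replicate 3 was the high one at 1 hpf, and the interaction without that pair was 4.35 (4.79 with it).

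For sun2 (ENSDARG00000086490), which encodes an inner nuclear membrane protein that links the nucleus to the cytoskeleton, the interaction was 3.02 ± 0.32, with -3.32 between genotypes at 1 hpf and -0.29 at 6 hpf. For si:ch211-276i12.11 (ENSDARG00000105412) it was 2.23 ± 0.25, with -3.42 at 1 hpf and -1.23 at 6 hpf. The mitochondrial adenylate kinase gene ak3 (ENSDARG00000058226) rose by 9.98 in MZznf598 and 7.95 in wild type, with -1.96 between genotypes at 1 hpf and 0.07 at 6 hpf. In all 3 the mutant deficit at 1 hpf passed the test, and it persisted past the test at 6 hpf only for si:ch211-276i12.11.

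The Golgi mannosidase gene man2a2 (ENSDARG00000063101), whose enzyme trims N-glycans, crossed over. It had 47.8, 42.2 and 45.6 CPM in MZznf598 at 1 hpf, against 66.2, 74.8 and 56.1 CPM in wild type, and 152, 159.8 and 154 CPM in MZznf598 at 6 hpf, against 101, 101 and 86 CPM in wild type. In snai2 (ENSDARG00000040046), a transcriptional repressor of the Snail family, and in ENSDARG00000087901, the level in wild-type replicate 3 was far from the other wild-type libraries. For snai2 the levels were 10.8, 10.5 and 11.4 CPM in MZznf598 at 1 hpf, against 21.8, 18.7 and 11 CPM in wild type, and 489, 420.2 and 483 CPM in MZznf598 at 6 hpf, against 407, 423 and 226 CPM in wild type. Wild-type replicate 3 was low at both stages, the levels overlapped at both, and the call rested on the pairing, since without the block the adjusted p was 0.196. The call of ENSDARG00000087901 likewise rested on the pairing, with wild-type replicate 3 low at both stages and overlap between genotypes at 1 hpf but not at 6 hpf. It had 0.575, 0.21 and 0.161 CPM in MZznf598 at 1 hpf, against 2.76, 2.71 and 0.409 CPM in wild type, and 19.8, 18.3 and 15.4 CPM in MZznf598 at 6 hpf, against 10.2, 4.51 and 0.508 CPM in wild type (adjusted p 0.00824 with the block and 0.0844 without).

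In the zygotic class 2 called genes rose less in MZznf598, and both started higher in the mutant. The gene tp53inp2 (ENSDARG00000088178), a regulator of autophagy in mammals, had 8.99, 9.79 and 8.27 CPM in MZznf598 at 1 hpf, against 3.35, 3.18 and 3.27 CPM in wild type. At 6 hpf it had 92.1, 90.4 and 83.8 CPM in MZznf598, against 111, 136 and 129 CPM in wild type. The mutant was above wild type before the transition and below it afterwards (1.46 and -0.49, both past the test), with an interaction of -1.95 ± 0.16 (adjusted p 0.00197). The gene hif1al (ENSDARG00000100826), a hypoxia-inducible factor alpha subunit paralogue, had 106, 108 and 93.3 CPM in MZznf598 at 1 hpf, against 24.8, 23.07 and 37 CPM in wild type, and 419.6, 455 and 442 CPM in MZznf598 at 6 hpf, against 309, 314 and 376 CPM in wild type. It was higher in MZznf598 at both stages, with 1.86 at 1 hpf and 0.40 at 6 hpf, and its interaction was -1.48 ± 0.13 (adjusted p 0.00254).

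The cleared class held 6 called genes, and the terms cleared less (3 genes) and cleared more (3 genes) compare the change in MZznf598 with that in wild type. Cleared more does not mean that wild type cleared the transcript. With classes set by the wild-type change alone, the cleared class held 0 negative genes. Levels at 1 and 6 hpf do not separate decay of maternal mRNA from new transcription. The 3 that were cleared less were higher in MZznf598 at 6 hpf past the test, and the 1 hpf difference was negative in all 3 but past the test only in ENSDARG00000086317. For ENSDARG00000086317, a gene with only a clone-based symbol, the levels were 26.5, 23.14 and 24.7 CPM in MZznf598 at 1 hpf, against 54.4, 67.4 and 56.7 CPM in wild type, and 21.3, 22.6 and 23 CPM in MZznf598 at 6 hpf, against 15.7, 12.9 and 9.82 CPM in wild type. The wild-type transcript fell by 2.22 on the log2 scale, and the mutant change of -0.15 did not pass the test (adjusted p 0.381). The larger difference was the deficit at 1 hpf, -1.26 against 0.79 at 6 hpf, and its interaction was 2.07 ± 0.22 (adjusted p 0.00501).

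The gene zgc:171776 (ENSDARG00000032156) had 186, 162 and 122 CPM in MZznf598 at 1 hpf, against 195, 188 and 318 CPM in wild type, and 22.5, 31 and 27.8 CPM in MZznf598 at 6 hpf, against 7.78, 6.23 and 6.27 CPM in wild type. It was strongly cleared in both genotypes, by 2.51 in MZznf598 and 5.05 in wild type, and more of it was left in the mutant (log2 difference of 2.0 at 6 hpf, adjusted p 0.000521). For gripap1 (ENSDARG00000063069), which encodes a protein of endosomal recycling in mammalian neurons, the levels were 119, 126 and 122 CPM in MZznf598 at 1 hpf, against 147, 144 and 155 CPM in wild type, and 43.6, 43.8 and 38.3 CPM in MZznf598 at 6 hpf, against 24.4, 23.3 and 26.2 CPM in wild type. Replicates lay close together, and the interaction of 1.05 ± 0.12 was the smallest among positive genes.

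Of the 3 genes cleared more in MZznf598, snx4 (ENSDARG00000022659), a sorting nexin of endosomal recycling, fell in both genotypes. It had 113, 120.1 and 115 CPM in MZznf598 at 1 hpf, against 128, 126 and 154 CPM in wild type, and 39, 39.3 and 36 CPM in MZznf598 at 6 hpf, against 92.2, 88.9 and 114 CPM in wild type. The log2 change was -1.61 in MZznf598 and -0.47 in wild type, and the difference appeared at 6 hpf (-1.37) and not past the test at 1 hpf (-0.23). For si:ch73-266f23.2 (ENSDARG00000054957) the levels were 18.7, 15.7 and 11.9 CPM in MZznf598 at 1 hpf, against 18.6, 16.8 and 13.7 CPM in wild type, and 3.5, 2.92 and 1.57 CPM in MZznf598 at 6 hpf, against 15.6, 23.7 and 13.2 CPM in wild type. The groups overlapped at 1 hpf and were far apart at 6 hpf. The mutant transcript fell by 2.55, while the wild-type change of 0.07 did not pass the test.

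The integrin alpha gene itga11 (ENSDARG00000036086), whose protein is a collagen receptor in mammals, had the largest negative interaction, -5.84 ± 0.69. It had 1.37, 1.54 and 1.2 CPM in MZznf598 at 1 hpf, against 10.1, 7.24 and 4.09 CPM in wild type. Its 6 hpf levels were 0, 0.146 and 0 CPM in MZznf598, against 22.8, 17.4 and 13.9 CPM in wild type. A single count was seen over the 3 mutant libraries at 6 hpf, against 386 counts in wild type, a ratio of wild type to MZznf598 of 364 (65.0 to 14429), so the fitted fold changes at this stage depend on the prior count. Its class rests on that floor too, since the wild-type transcript rose by 1.37.

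Genes expressed at both stages made up the rest. Of the 6 positive maternal-zygotic genes, 4 had stage changes of opposite sign in the 2 genotypes. The C2H2-type zinc finger gene znf236 (ENSDARG00000095890) had a log2 change of 0.91 in MZznf598 and -0.71 in wild type. It had 55.1, 50.5 and 52.7 CPM in MZznf598 at 1 hpf, against 62.8, 66.9 and 59.9 CPM in wild type, and 92.6, 107 and 98.3 CPM in MZznf598 at 6 hpf, against 36.4, 35.6 and 44.7 CPM in wild type. The genotype difference did not pass before the transition (-0.26, adjusted p 0.162) and passed after it (1.35), with an interaction of 1.62 ± 0.16 (adjusted p 0.00435).

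The gene ap3s2 (ENSDARG00000039882), a subunit of the AP-3 adaptor of vesicle transport, had 13, 14.5 and 14.4 CPM in MZznf598 at 1 hpf, against 20.7, 18.3 and 23.3 CPM in wild type, and 20.8, 19.7 and 19.4 CPM in MZznf598 at 6 hpf, against 6.07, 8.35 and 7.28 CPM in wild type. The unnamed gene ENSDARG00000074844 had 11.4, 11.3 and 11.6 CPM in MZznf598 at 1 hpf, against 22.4, 23.3 and 17 CPM in wild type, and 15.5, 18.3 and 17.4 CPM in MZznf598 at 6 hpf, against 3.82, 3.71 and 5.25 CPM in wild type. Both were lower in the mutant at 1 hpf and higher at 6 hpf without overlap. The wild-type transcripts fell, by 1.51 and by 2.31, and neither mutant change passed the test (0.52 and 0.58). The interactions were 2.03 ± 0.23 and 2.88 ± 0.27.

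The remaining positive genes of the class started low in the mutant and rose there. For ccdc93 (ENSDARG00000040678), a component of an endosomal recycling complex, the levels were 12.7, 10.9 and 12.5 CPM in MZznf598 at 1 hpf, against 41.1, 52.2 and 64.4 CPM in wild type, and 36.6, 41.3 and 33.7 CPM in MZznf598 at 6 hpf, against 28.6, 34.2 and 30.1 CPM in wild type. For ikbip (ENSDARG00000078520) they were 7.41, 7.55 and 8.59 CPM in MZznf598 at 1 hpf, against 43.9, 44 and 44.9 CPM in wild type, and 23, 24.7 and 26.5 CPM in MZznf598 at 6 hpf, against 47.9, 43.7 and 51.5 CPM in wild type. The difference in ccdc93 did not pass at 6 hpf (0.26, adjusted p 0.377), and that in ikbip was smaller there but still past the test (-0.94). The gene trim35-40 (ENSDARG00000042116), of the RING-type ubiquitin ligase family TRIM, had differences of -0.71 at 1 hpf and 0.76 at 6 hpf, neither past the test, and an interaction of 1.48 ± 0.16. It belongs to a large zebrafish family of similar copies, and since only uniquely aligned reads were counted, its values are uncertain.

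All 5 negative maternal-zygotic genes rose in wild type, and 4 of them fell in MZznf598, while the mutant change of nat8 did not pass the test. The largest calls were cited2 (ENSDARG00000030905), a transcriptional coregulator that binds the CBP and p300 coactivators, and invs (ENSDARG00000002213), which encodes the ciliary protein inversin. For cited2 the levels were 22.7, 22.4 and 22.2 CPM in MZznf598 at 1 hpf, against 31.9, 30.4 and 18.2 CPM in wild type, and 10.3, 10.5 and 13.6 CPM in MZznf598 at 6 hpf, against 138, 99 and 78.6 CPM in wild type. The groups overlapped at 1 hpf and the mutant lacked the wild-type rise, falling by 0.97 where wild type rose by 1.97 (interaction -2.94 ± 0.19, adjusted p 0.000551).

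For invs the levels were 34.5, 30.3 and 36 CPM in MZznf598 at 1 hpf, against 11, 17.2 and 13.9 CPM in wild type, and 10.3, 8.91 and 14.1 CPM in MZznf598 at 6 hpf, against 63.3, 51.2 and 49.95 CPM in wild type. The order of the genotypes was turned round over the transition, with 1.26 at 1 hpf and -2.30 at 6 hpf, both past the test, and the interaction was -3.58 ± 0.27 (adjusted p 0.00145). The lysophosphatidic acid receptor gene lpar2 (ENSDARG00000042561) also turned round, higher in the mutant before the transition and lower after it, with 95.9, 93.5 and 97.5 CPM in MZznf598 at 1 hpf, against 67.6, 70.0 and 61.4 CPM in wild type, and 60.8, 59.6 and 61.9 CPM in MZznf598 at 6 hpf, against 86, 96.9 and 88.1 CPM in wild type. The interaction of lpar2 was -1.1 ± 0.11.

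The gene hopx (ENSDARG00000089368), a homeodomain protein that does not bind DNA, had an interaction of -1.27 ± 0.15, with 0.58 between genotypes at 1 hpf and -0.69 at 6 hpf, neither past the test. The gene nat8 (ENSDARG00000078991), an acetyltransferase, had 41.2, 38 and 45.7 CPM in MZznf598 at 1 hpf, against 21.9, 18.3 and 17.1 CPM in wild type, and 34.1, 38.8 and 41.4 CPM in MZznf598 at 6 hpf, against 45.6, 40.8 and 39.5 CPM in wild type. It started higher in the mutant, where its log2 change was -0.13 (adjusted p 0.284), and the wild-type transcript rose to the same range.

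**Figure D3:**
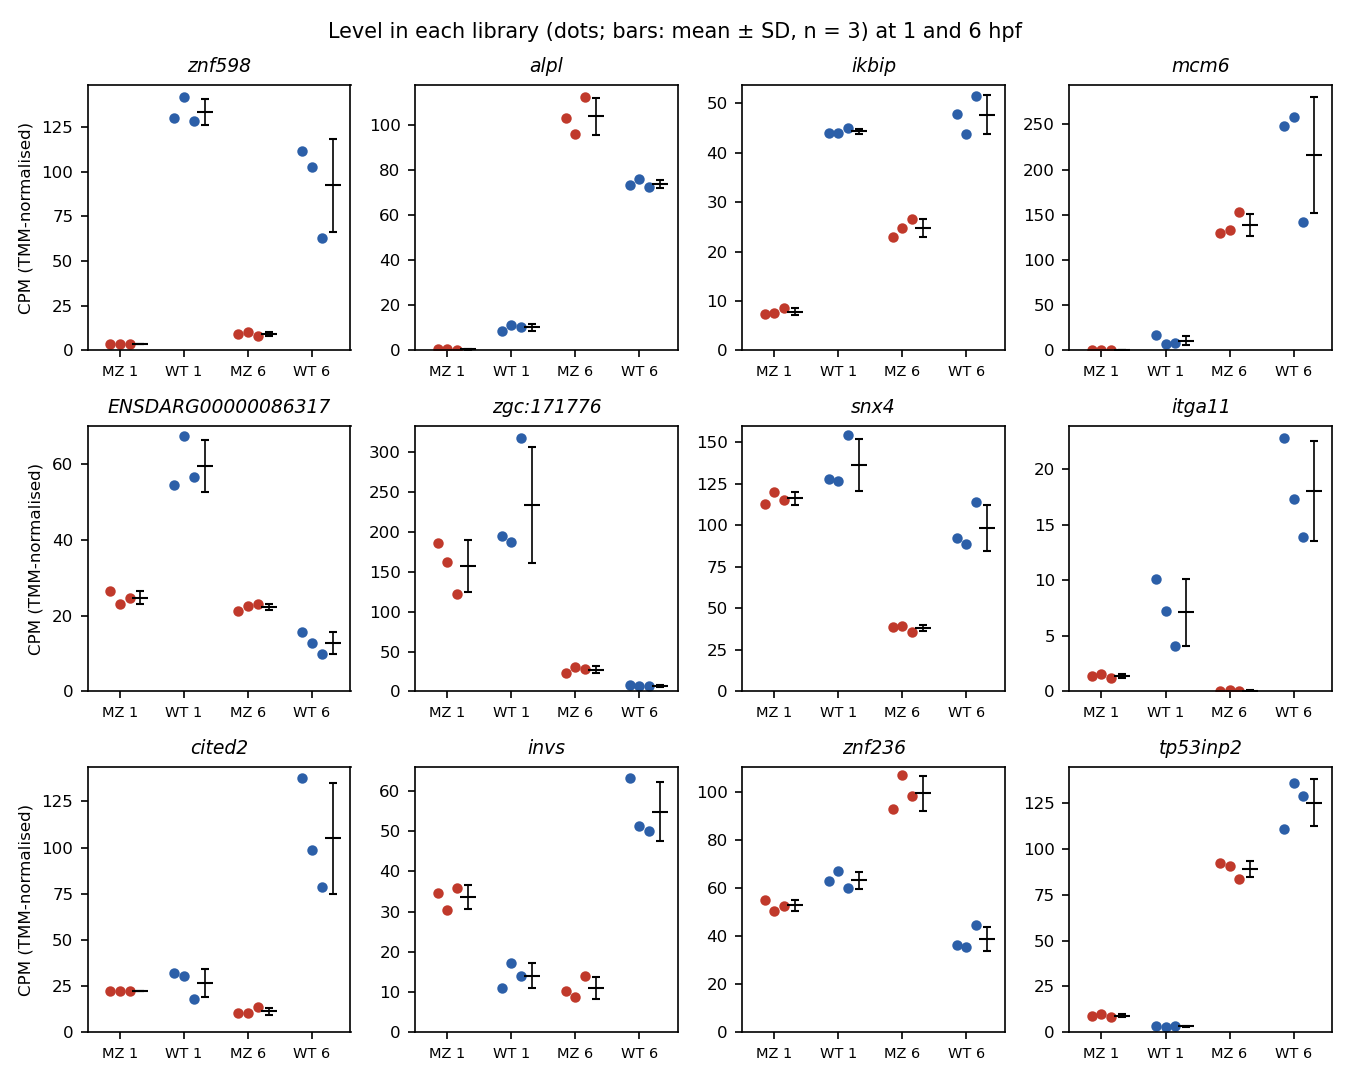
Level in each library (dots, TMM-normalised CPM on linear axes from 0, mean ± SD beside them, n = 3) of znf598 and 11 genes called for the interaction, with MZ for MZznf598, WT for wild type, and 1 and 6 for the stage in hpf. The mutant lay below wild type at 1 hpf for alpl, ikbip and mcm6, above it at 6 hpf for zgc:171776 and znf236, and below it at 6 hpf for snx4, itga11 and cited2.

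The called genes can be sorted by where the genotypes differed. Of the 23 positive genes, all 23 were lower in MZznf598 at 1 hpf and 15 were higher at 6 hpf. The larger of both genotype differences lay at 1 hpf in 15 genes and at 6 hpf in 8. By the genotype tests, 10 of the 23 passed at 1 hpf alone, 4 at 6 hpf alone, 6 at both stages and 3 at neither. Of the 10 negative genes, 3 had the larger difference at 1 hpf and 7 at 6 hpf, with 2 passing at 1 hpf alone, 3 at 6 hpf alone, 4 at both and 1 at neither. By class, 12 of the 14 positive zygotic genes had the larger difference at 1 hpf, and 5 of the 6 called genes of the cleared class had it at 6 hpf. A low mutant level at 1 hpf moves a gene toward the zygotic class, and a low level at 6 hpf toward the cleared class. The class and the stage of the larger difference are thus not independent, and nothing is read from this split.

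**Figure D4:**
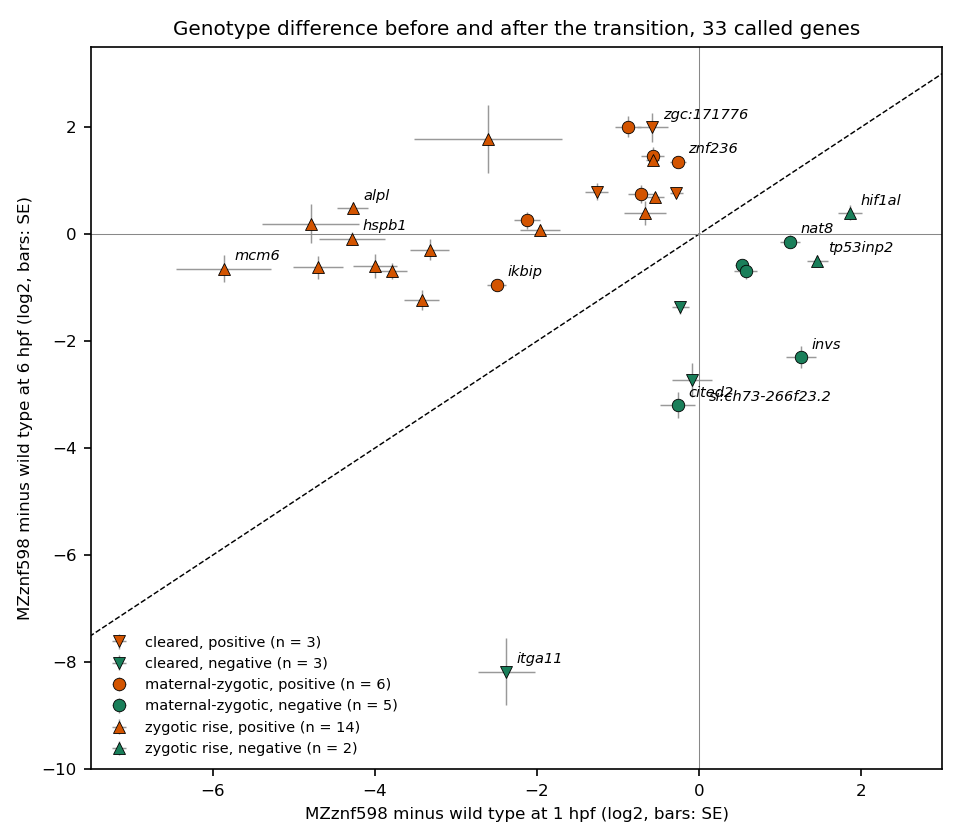
Log2 difference MZznf598 minus wild type at 1 hpf (horizontal) and at 6 hpf (vertical) for the 33 called genes, with SE bars, equal difference on the dashed line, orange for positive and green for negative interaction, and marker shape for the class. Orange triangles spread to the left at heights near 0, such as mcm6 (-5.87 at 1 hpf and -0.64 at 6 hpf), while cited2 and itga11 lie low, at -3.19 and -8.18 at 6 hpf.

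In every called gene the 3 MZznf598 pair changes were all above or all below the 3 wild-type ones. Over all genes tested, 19.9% had such non-overlapping pair changes, 9.94% with MZznf598 above and 9.96% with it below, and nothing is read from the count among called genes because the test used the same values. The class assignment of the called genes was less certain than their direction. By the wild-type change alone, the positive calls split into 5 cleared, 9 maternal-zygotic and 9 zygotic genes, and the negative calls into 0, 4 and 6.

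**Figure D5:**
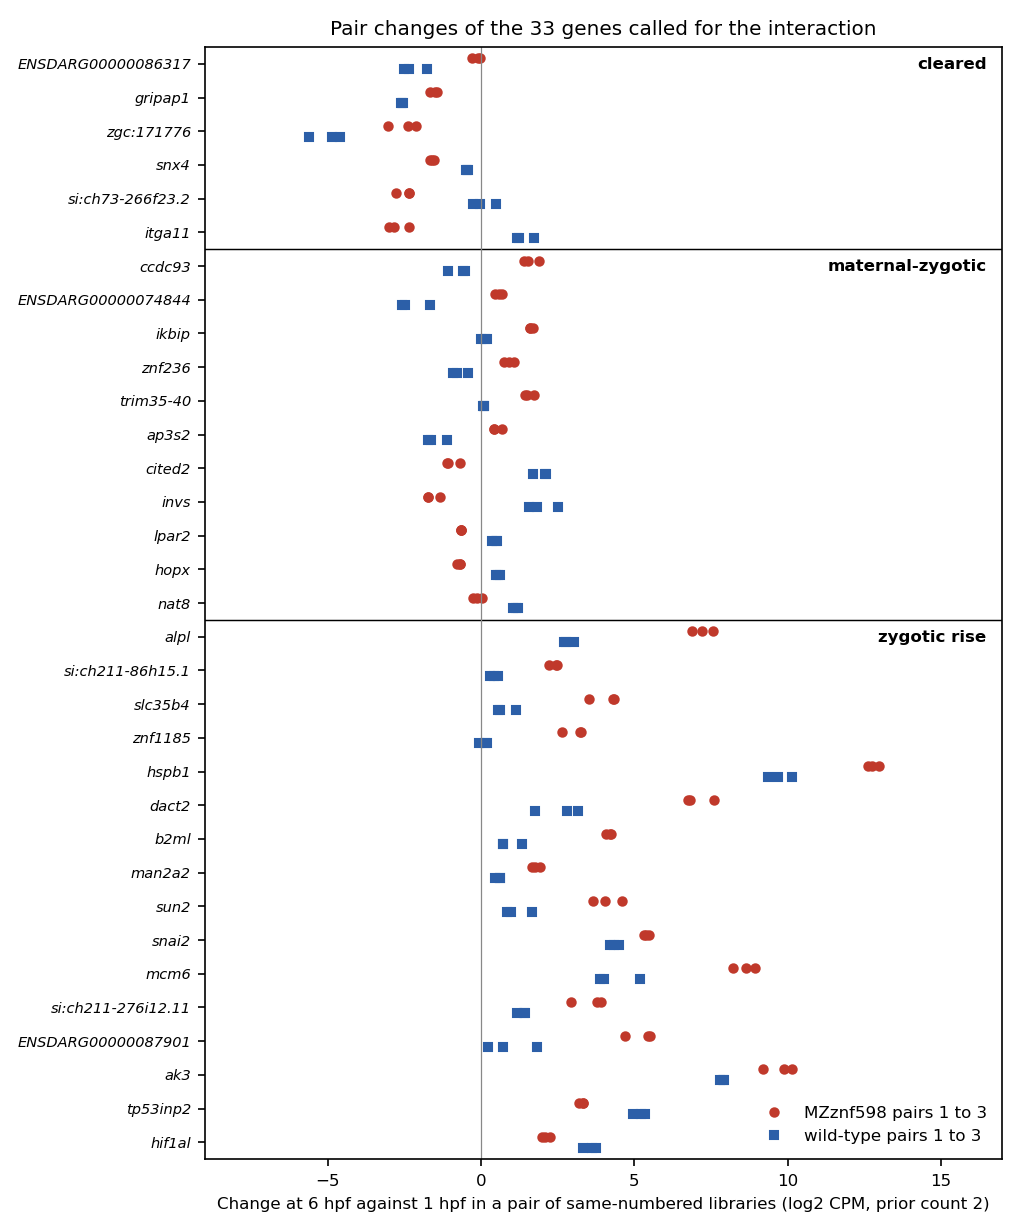
Log2 change at 6 hpf against 1 hpf (horizontal, log2 CPM with a prior count of 2) in each pair of same-numbered libraries for the 33 called genes, in rows by class, with MZznf598 as red circles above wild type as blue squares. The 3 circles and the 3 squares of a row do not overlap, with the circles to the right in the 23 positive genes.

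The genes that the study followed up were looked at as a list, and since that list was chosen on these samples, its direction is not independent evidence. It holds genes named in the study's follow-up or in its qRT-PCR primer list, among them gstm, ddx4 and actb1, which the study measured as controls. Of 21 symbols listed, 15 were matched, some of them to more than 1 gene copy. The list's counts include these copies, and znf1102 was not among the genes tested. When the study injected mRNA of full-length Znf598 into MZznf598 embryos, znf236 and znf970 were lowered. By its report, ap3s2, mapk14b and piezo2 were not. Of the list's 19 tested genes, 2 were called, both positive (znf236 and ap3s2, 10.5% of the list, against 0.145% of all genes). An interaction above 0 was seen in 14, and the median was 0.32, against 0.00 over all genes. The C2H2-type zinc finger gene znf970 (ENSDARG00000086494) had 16.6, 16.9 and 16.4 CPM in MZznf598 at 1 hpf, against 19.1, 15.6 and 15 CPM in wild type, and 28.1, 22.8 and 25.1 CPM in MZznf598 at 6 hpf, against 11.1, 8.48 and 9.65 CPM in wild type. Its groups overlapped at 1 hpf only, and its interaction of 1.37 ± 0.19 missed the threshold (adjusted p 0.0174). It passed without the block (0.00591) and without wild-type pair 3 (0.000141).

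The stress kinase gene mapk14 (ENSDARG00000028721) had 167, 164 and 173 CPM in MZznf598 at 1 hpf, against 139, 137 and 166 CPM in wild type, and 164, 159 and 148 CPM in MZznf598 at 6 hpf, against 78.1, 78.8 and 95.7 CPM in wild type. Its wild-type level fell by 0.80 and its mutant change of -0.10 did not pass, with an interaction of 0.71 ± 0.10 (adjusted p 0.0220, and 9.4e-05 without wild-type pair 3). Its second copy (ENSDARG00000000857) had an interaction of -0.11 ± 0.17. The mechanosensitive channel gene piezo2 (ENSDARG00000107086) was higher in MZznf598 at both stages, by 0.86 at 1 hpf and 1.53 at 6 hpf, and its interaction of 0.68 ± 0.14 had an adjusted p of 0.0826 (0.00887 without wild-type pair 3). For znf1007 the interaction was 0.55 (adjusted p 0.0577, and 0.000794 without wild-type pair 3), for znf292 0.34 (0.208) and for the tRNA methyltransferase gene trmt11 0.39 (0.226). At the other end, znf1093 was higher in MZznf598 by about the same amount at both stages (1.18 at 1 hpf and 1.05 at 6 hpf), with an interaction of -0.15 ± 0.26, and the germ cell helicase gene ddx4 had 0.00 ± 0.11. The actin gene actb1 had an interaction of -0.39 ± 0.23 (adjusted p 0.592), and its wild-type level at 6 hpf was 1011, 1009.5 and 684 CPM with replicate 3 the low one. Without wild-type pair 3 it was -0.71 (adjusted p 7.23e-06). In that fit 7 of the 19 genes were called positive (36.8%, against 1.92% of all genes), and actb1 was called negative. The positive ones were znf236, ap3s2, mapk14, znf970, znf1007, piezo2 and the targeted gene znf598 itself. The other 6 genes of the list (si:ch73-266f23.1, znf292a, the second copy of piezo2 and the 3 copies of gstm3) lay between -0.25 and 0.32.

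Groups of genes that act in the transition gave few calls. Among genes named as C2H2-type zinc finger genes by their symbols, 361 were tested, 2 were called positive (znf1185 and znf236, 0.554%, against 0.145% of all genes) and 0 negative (0.0632% of all genes). The choice by symbol also took in 3 glipr genes, whose proteins are not zinc finger proteins, and znf598 itself. It missed C2H2-type genes with clone-based symbols, such as si:ch73-266f23.1. The study chose such genes by protein domain and its set was far larger, so these counts do not cover the family. Of these genes 57.9% had an interaction above 0, against 50% of all genes, and their median was 0.11. At an unadjusted p under 0.05 there were 36 positive (9.97%) and 10 negative (2.77%), against 5.88% and 5.93% of all genes. Their median difference between genotypes was 0.02 at 1 hpf and 0.15 at 6 hpf, against 0.00 and -0.01 over all genes. In 295 members with more than 3 counts in some library of every group, the median interaction was 0.06. Many zinc finger genes have near-identical copies, so their uniquely aligned counts are uncertain. The 122 RING finger genes, a further family of zinc-binding proteins, had 1 call (trim35-40, 0.82%) and a median of 0.00, with 50% above 0 and 7 positive (5.74%) and 8 negative (6.56%) at an unadjusted p under 0.05.

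Genes of gastrula patterning, such as the signals and transcription factors of the dorsal-ventral and mesendodermal axes, gave 0 calls among 73 tested (8 positive and 3 negative at an unadjusted p under 0.05, 11% and 4.11%, against 5.88% and 5.93% of all genes). Their median interaction was 0.51, and 75.3% lay above 0, against 50% of all genes and 49.5% of the zygotic class. This list was near the floor at 1 hpf: 36 members had a group with at most 3 counts in every library. In 24 members this held for both groups at 1 hpf. With group levels held at 3 counts or more the median was 0.27, as it was among the other 37 members. Of those 37, 26 lay above 0. In all 73 members the median genotype difference was -0.47 at 1 hpf and 0.09 at 6 hpf. Their summed level was 338 to 376 CPM in MZznf598 and 346 to 424 CPM in wild type at 1 hpf, and 11009 to 11083 CPM in MZznf598 and 10268 to 11009 CPM in wild type at 6 hpf. The member of lowest p was szl (sizzled, an inhibitor of the Bmp1 and tolloid proteases that degrade Chordin), which went the other way. It had 0.432, 0.14 and 0.402 CPM in MZznf598 at 1 hpf, against 0.263, 0.338 and 0.245 CPM in wild type, and 18, 18.8 and 15 CPM in MZznf598 at 6 hpf, against 65.1, 70.4 and 87.4 CPM in wild type, with an interaction of -2.25 ± 0.56 (adjusted p 0.127) and a difference of -2.10 at 6 hpf (adjusted p 1.06e-05).

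Markers of embryonic cell types were counted likewise, with 0 called of 20 enveloping layer markers, 0 of 15 germ plasm markers and 0 of 16 yolk syncytial layer markers (3, 2 and 2 at an unadjusted p under 0.05, or 15.0%, 13.3% and 12.5%, against 11.8% of all genes). The enveloping layer is the outer epithelium of the embryo, and its markers summed to 6144 to 6870 CPM in MZznf598 at 6 hpf, below the 7125 to 7315 CPM of wild type, and to 331 to 377 CPM in MZznf598 and 324 to 453 CPM in wild type at 1 hpf. Their median interaction was 0.04, and the member of lowest p was klf17, a zinc finger transcription factor, at 0.97 ± 0.32 (adjusted p 0.256). The germ plasm markers had a median log2 change of -1.73 in MZznf598 and -2.05 in wild type, and their median interaction was 0.08. It was above 0 in 13 of 15 (86.7%, against 50% of all genes and 48.8% of the cleared class). At 6 hpf, 9 of the 15 markers were higher in MZznf598. Their median genotype difference was 0.02 at 1 hpf and 0.11 at 6 hpf. None of the 15 had a group with at most 3 counts in every library. A median taken from group levels held at 3 counts or more was nonetheless 0.03. Among them tdrd7a, a germ granule component, had 81.4, 75.5 and 87.4 CPM in MZznf598 at 6 hpf, against 67.8, 55.5 and 44 CPM in wild type. Its interaction was 0.54 (adjusted p 0.239), and 0.35 without wild-type pair 3 (adjusted p 0.0432). The yolk syncytial layer markers summed to 4316 to 4537 CPM in MZznf598 and 4277 to 4863 CPM in wild type at 6 hpf, with a median interaction of 0.18. Their member of lowest p was the anion transporter gene slc26a1, with 6 counts over the MZznf598 group and 18 over the wild-type group at 1 hpf, a ratio of wild type to MZznf598 of 2.89 (1.1 to 8.89).

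Factors of maternal mRNA clearance, which include the deadenylation, decapping and microRNA machineries, were 76, with 0 called and a median interaction of 0.05 (3 at an unadjusted p under 0.05, all positive, or 3.95% against 11.8% of all genes). The microRNA processing gene dgcr8 came first, with 123, 124 and 129 CPM in MZznf598 at 6 hpf, against 84, 78.2 and 58.1 CPM in wild type, and an interaction of 0.68 ± 0.15 (adjusted p 0.0977, and 0.00215 without wild-type pair 3). Of 34 genes of ribosome collision and rescue, 0 were called, and the median was 0.01 (6 at an unadjusted p under 0.05, 17.6%). After znf598, ascc2, a subunit of the complex that splits collided ribosomes, had 0.61 (adjusted p 0.0832, and 0.00621 without wild-type pair 3). The gene ascc2 was chosen after its values were seen. Of 35 targets of the integrated stress response, the programme started by eIF2 alpha phosphorylation, 0 were called and the median was 0.01 (5 at an unadjusted p under 0.05, 14.3%). Its member of lowest p was aldh1l2, a mitochondrial folate enzyme, with 27.6, 28.5 and 32.4 CPM in MZznf598 at 6 hpf, against 48.7, 43.7 and 54.4 CPM in wild type (interaction -0.72, adjusted p 0.119).

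The genome activation factors gave 0 calls among 15 and the p53 targets 0 among 25, with medians of 0.14 and 0.13. Each list had 3 genes at an unadjusted p under 0.05 (20% and 12%, against 11.8% of all genes). The histone acetyltransferase gene ep300 had 334, 312 and 348 CPM in MZznf598 at 6 hpf, against 241, 240.1 and 259 CPM in wild type, and an interaction of 0.31 (adjusted p 0.181). The polo-like kinase gene plk3 came first among the p53 targets, at 0.26 ± 0.09 (adjusted p 0.309). Among 49 mRNAs of oocyte and egg, 0 were called, with a median of -0.07. At an unadjusted p under 0.05 there were 9 (18.4%, against 11.8% of all genes), 5 positive and 4 negative. The nucleoplasmin gene npm2a, a maternal histone chaperone, had 18.1, 17 and 17.2 CPM in MZznf598 at 1 hpf, against 42, 41.4 and 39.5 CPM in wild type, and 7.5, 9.49 and 9.71 CPM in MZznf598 at 6 hpf, against 9.23, 10.1 and 4.57 CPM in wild type (interaction 1.41 ± 0.29, adjusted p 0.0758, and 0.00182 without wild-type pair 3). The mutant began lower without overlap and ended in the wild-type range.

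Wild-type replicate 3 carried the largest effect on these counts. Without it, 304 genes (1.92%) were called positive and 403 (2.55%) negative (4.47% in all), among them 22 of the 23 positive and all 10 negative genes. The negative calls then included 128 cleared genes (2.91% of the class) against 32 positive ones (0.726%), and the zygotic class had 151 positive (3.35%) and 129 negative calls (2.86%). The remaining wild-type pairs had medians of -1.62 and -1.73 for cleared genes, against -1.77 to -1.82 in MZznf598, so that the mutant pairs were then the ones with the stronger clearance. The part of this shift in the added calls was not tested. The C2H2-type zinc finger genes had 16 positive (4.43%) and 2 negative calls (0.554%) in that fit, with znf142 (1.21), znf503 (1.33), klf17 (1.23) and znf598 itself among the positive ones, and znf395 (-0.38) and glipr2 (-0.61), which is no zinc finger gene, as the negative ones. The RING finger genes had similar shares, 5 positive (4.1%) and 1 negative (0.82%). The patterning genes had 5 positive calls (6.85%), mixl1 (1.61), her7 (1.21), klf17 (1.23), ndr2 (1.92) and bmp4 (2.32), and 0 negative ones. The genes of ribosome collision and rescue had 4 positive calls of 34 (11.8%) and 0 negative ones. The positive calls were rnf10 (0.47), ascc1 (1.40), ascc2 (0.58) and the targeted gene znf598 itself (1.72). Among the stress response targets hspa5 (-0.57) and sars1 (-0.43) were called negative, the clearance factors had 1 call (dgcr8), the enveloping layer markers 1 (klf17) and the germ plasm markers 1 (h1m), and the genome activation factors, p53 targets and yolk syncytial layer markers had 0.

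The cleared class held 30 of the 49 egg mRNAs, and without wild-type replicate 3 this class had more negative than positive calls. Of the egg mRNAs, 9 of 49 were called negative in that fit and 1 positive. The negative share was 18.4%, against 2.55% of all genes and 2.91% of the cleared class. The negative ones included 4 genes of the zona pellucida proteins that form the egg coat, zp3.2 (-1.12), zp3b (-0.74), zp3a.1 (-0.61) and zp3 (-0.67), the claudin genes cldnd (-0.72) and cldng (-0.96), the cell cycle genes ccnb1 (-0.50) and aurka (-0.50), and the maternal linker histone gene h1m (-0.66). In the fit with all pairs none of these passed, and h1m stood at -0.02 and zp3.2 at -0.77. The zona pellucida genes are a family of similar copies, so their uniquely aligned counts are uncertain. All names in these last lists were chosen after their values were seen.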

How the data were processed

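RNA-seq was done on 12 pools of zebrafish embryos, with 3 libraries per genotype and stage, grouped by their labels. Per the study's methods, the authors sequenced rRNA-depleted, stranded libraries single-end, used fastp for trimming and STAR (2.7.8a) for alignment to GRCz11, and assigned unique alignments of no more than 1 mismatch to Ensembl genes with featureCounts. The deposited values are raw read counts per gene and library. Which annotation release and which strand setting went into the counting is not given in the sources used here, so overlapping and antisense genes, and near-identical copies, may share or lose reads. No genome sequence or gene coordinates were used here.

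Symbols were matched by Ensembl gene ID (23608 of 25432 genes, 15347 of the 15829 tested) and written in lower case. Counts were analysed as deposited in R 4.3.3 with edgeR 4.0.16 (TMM normalisation, robust quasi-likelihood test, two-sided, Benjamini-Hochberg adjustment over all 15829 genes tested, threshold 0.01). The interaction and the stage changes came from a fit with 1 term for each of 6 pairs (same number, same genotype) plus a stage term per genotype (4 residual degrees of freedom). Genotype differences at 1 and 6 hpf came from a fit of the 4 group means (8 residual degrees of freedom). SE values were derived from the log2 fold change and its F statistic. Fitted changes of genes near 0 depend on the prior count, and exact intervals of ratios (95%, SciPy 1.17.1) cover counting error only.

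The pairing was checked before the fits were compared. Deviations from the group means correlated at 0.133 to 0.209 between same-numbered libraries of a genotype (6 pairs, all over 0.1). Between other numbers of the same genotype the range was -0.171 to 0.065. Deviations within a group cancel out, so these values tend to be negative where the same-numbered ones are positive. Across genotypes at the same stage, differently numbered libraries correlated at -0.149 to 0.171, which overlaps the same-number range. The pairing comes from these data, since the labels do not say what a number marks.

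The text names znf598, the genes the study followed up, up to 5 called genes of lowest adjusted p per class and direction, called members of the gene lists, and for a list with no call its member of lowest p. Names outside that rule are said to be chosen after their values were seen. The members and lists were chosen with earlier results of these data known. The alternatives were no replicate block, relative log expression (RLE) size factors in edgeR, a DESeq2 1.42.0 Wald test and a likelihood ratio test. Others were no filter on low counts, a test against a 1.5-fold change and an adjusted p under 0.05. Class rules were also varied, and each pair or library was left out in turn. Only the paired fit of the interaction was tested on simulated data, which held no outlying library.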

Additional observations from a re-analysis of the deposited data

Results flagged for a closer look

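The genes listed here were picked out because the test of the difference itself, the interaction term, found the genotype difference at 6 hpf to differ from that at 1 hpf (edgeR, adjusted p under 0.01). Of 15829 genes, 33 did so.

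In the zygotic class the positive values were 4.75 for alpl, 1.96 for si:ch211-86h15.1, 3.37 for slc35b4, 3.11 for znf1185, 4.20 for hspb1, 4.79 for dact2, 4.09 for b2ml, 1.23 for man2a2, 3.02 for sun2, 1.05 for snai2, 5.18 for mcm6, 2.23 for si:ch211-276i12.11, 4.52 for ENSDARG00000087901 and 2.03 for ak3. The negative ones were -1.95 for tp53inp2 and -1.48 for hif1al. In the maternal-zygotic class the positive values were 2.37 for ccdc93, 2.88 for ENSDARG00000074844, 1.55 for ikbip, 1.62 for znf236, 1.48 for trim35-40 and 2.03 for ap3s2. The negative ones were -2.94 for cited2, -3.58 for invs, -1.1 for lpar2, -1.27 for hopx and -1.26 for nat8. In the cleared class the positive values were 2.07 for ENSDARG00000086317, 1.05 for gripap1 and 2.54 for zgc:171776, and the negative ones were -1.14 for snx4, -2.62 for si:ch73-266f23.2 and -5.84 for itga11.

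Of these, b2ml, hspb1 and itga11 had a group with at most 3 counts in every library, so the size of their fitted change depends on the prior count. For mcm6 the highest count in a MZznf598 library at 1 hpf was 4.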

How the results depend on the processing

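The 33 called genes kept their direction under every alternative, but the number of calls depended on the fit. Against 23 positive and 10 negative genes, a DESeq2 Wald test called 104 and 68, a likelihood ratio test 201 and 176, no filter on low counts 49 and 37, a test against a 1.5-fold change 9 and 3, and an adjusted p under 0.05 83 and 56. RLE size factors gave 28 and 10. The replicate block mattered too, since the fit without it, on group means, called 45 and 26. Leaving out a pair gave 2 to 304 positive and 0 to 403 negative calls, with the highest without wild-type replicate 3. The cause was not tested.

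Genes cleared less numbered 3, and 5 by the wild-type change alone, 5 by either genotype, 11 at an adjusted p under 0.05, 6 without the replicate block and 0 to 32 without a pair. Genes cleared more numbered 3, and 0, 2, 14, 9 and 0 to 128 in the same settings. Genes that rose more numbered 14, and 9, 17, 43, 25 and 2 to 151. Genes that rose less numbered 2, and 6, 4, 25, 10 and 0 to 129.

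Leaving out a library moved the genotype calls at 6 hpf to 127 to 398 up and 121 to 486 down (278 and 277 with all), and those at 1 hpf to 147 to 416 up and 168 to 491 down (254 and 353 with all). Counts of stage changes stayed within 1.5 times. RLE size factors moved the median stage change to 0.13 in MZznf598 and 0.12 in wild type (-0.01 and -0.02 with TMM). The median interaction moved to 0.01 (0.00 with TMM).

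Signs turned for 6 of the named genes, none of them called. The interaction of ddx4 (0.00) was -0.0092 without the filter, -0.014 without the replicate block and -0.068 to 0.11 without a pair. Without a pair it was -0.055 to 0.30 for gstm3 (ENSDARG00000029473), -0.045 to 0.51 for gstm3 (ENSDARG00000088116), -0.25 to 0.0040 for mapk14 (ENSDARG00000000857), -0.011 to 0.31 for piezo2 (ENSDARG00000076005) and -0.47 to 0.034 for znf1093. Without the replicate block, snai2 and ENSDARG00000087901 lost and znf598 and znf970 gained the call among the genes named, and no other call among them changed. Depth limited mainly the 1 hpf levels of zygotic genes, where 1432 of 4594 had a group with at most 3 counts in every library.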

Other observations

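Several genes of the lists that were not called showed the low start in MZznf598 seen among the called zygotic genes. They were chosen after their values were seen. For trim35-34 (ENSDARG00000022271), a TRIM family gene like trim35-40, the levels were 0.216, 0.0699 and 0.482 CPM in MZznf598 at 1 hpf, against 2.17, 5.14 and 1.06 CPM in wild type, and 2.83, 2.04 and 2.43 CPM in MZznf598 at 6 hpf, against 2.51, 2.12 and 0.677 CPM in wild type (interaction 3.83, adjusted p 0.0487, and 0.00152 without wild-type pair 3). The gene frzb, a secreted Wnt antagonist, had 0 counts in all MZznf598 libraries at 1 hpf, against 3.94, 0.676 and 1.55 CPM in wild type, and 32.5, 33.9 and 35.7 CPM in MZznf598 at 6 hpf, against 18.5, 21.1 and 50.5 CPM in wild type (adjusted p 0.148). For ascc1, a partner of ascc2 in ribosome splitting, the levels were 4.60, 5.59 and 4.90 CPM in MZznf598 at 1 hpf, against 12.1, 26.6 and 10.7 CPM in wild type, with a genotype difference of -1.71 at 1 hpf and -0.53 at 6 hpf (interaction 1.1, adjusted p 0.230, and 0.00492 without wild-type pair 3). The mutant lay below every wild-type library at 1 hpf in all 3. In the MZznf598 libraries at 1 hpf, 3 counts correspond to 0.21 to 0.24 CPM. There trim35-34 and frzb were near or below the limit of detection, so the size of their fitted changes is uncertain. Like trim35-40, trim35-34 belongs to a family of similar copies, which makes its uniquely aligned counts uncertain as well.

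The linker histone gene h1-10 went the other way. It stood at 0.666, 0.584 and 0.999 CPM in MZznf598 at 6 hpf, against 4.48, 5.57 and 2.71 CPM in wild type, with overlapping levels at 1 hpf (interaction -2.47, adjusted p 0.106). The RING finger gene trim45 was higher in every MZznf598 library at 1 hpf (26.8, 21.8 and 42.3 CPM, against 10.9, 10.3 and 5.47 CPM in wild type) and overlapped wild type at 6 hpf (interaction -1.55, adjusted p 0.169, and -1.03 with 0.00927 without wild-type pair 3).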
